A study of Mus musculus with 2 samples.

Results

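The respiratory chain genes were taken by symbol from the scRNA-Seq counts of CD45+ heart cells, and 104 of the 23946 genes in the files met the rule. They were the symbols starting with Nduf, Uqcr, Atp5, or Cox4 to Cox8 without Cox6a2, together with Sdha to Sdhd, Cyc1, Cycs, and the mitochondrial genes whose symbols start with mt-Nd, mt-Co, mt-Cyt, or mt-Atp. Of these, 80 encode nuclear subunits, with 36 in complex I, 4 in complex II, 9 in complex III, 16 in complex IV, and 15 in complex V. Another 11 lie on the mitochondrial genome. The other 13 were 7 complex I assembly factors, the supercomplex factor Cox7a2l, the carrier Cycs, and 4 relatives of complex V genes that are not subunits.

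Hearts came from WT female C57BL6 mice of 8 to 16 weeks of age, 24 hours after a single i.p. injection. The ISO group received isoproterenol, a β-adrenergic agonist, at 200 mg/kg, and the control group received the PBS vehicle. The labels give the 200 mg/kg protocol for both samples, so the control was recognized by its title. In each group, the living CD45+ cells, which are leukocytes, of 3 hearts were pooled into 1 library, so no mouse can be told from another and the difference between the groups has no replicate check.

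The respiratory chain sits in the inner mitochondrial membrane. Complexes I and II take electrons from NADH and succinate, complex III passes them to cytochrome c, complex IV hands them to oxygen, and complex V makes ATP from the proton gradient. Most subunits are encoded in the nucleus and imported, whereas the core membrane subunits of complexes I, III, IV, and V are encoded in the mitochondrial genome. Macrophages and other leukocytes are known to shift between respiration and glycolysis when they are activated.

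The cell filters of the methods kept 5641 control and 5437 ISO barcodes, with a median of 4790 and 8537 UMIs. The libraries had 15 kept barcode sequences in common. Cell classes were set by marker gates on single barcodes, with limits on markers of other lineages, and are called by the gate. The macrophage gate held 862 control and 916 ISO barcodes, the monocyte gate 74 and 1557, the DC (dendritic cell) gate 77 and 145, the neutrophil gate 112 and 77, the B gate 1994 and 40, the T gate 173 and 29, the NK gate 234 and 16, and the ILC2 (group 2 innate lymphoid cell) gate 41 and 38. The gates left 2074 control and 2619 ISO barcodes unassigned. Of genes no gate used, Cd68, a lysosomal protein of macrophages, was at 471 CPM in control macrophage-gated and 18.2 CPM in control B-gated barcodes. Another such gene, S100a8, encodes a calcium-binding protein abundant in neutrophils. It was at 33719 CPM in control neutrophil-gated and 12.5 CPM in control macrophage-gated barcodes. In the ISO library, Cd68 was at 612 CPM in macrophage-gated and 92.0 CPM in B-gated barcodes. S100a8 was at 19897 CPM in ISO neutrophil-gated and 128 CPM in ISO macrophage-gated barcodes. In monocyte-gated barcodes, S100a8 was at 22.5 CPM in control and 544 CPM in ISO.

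Levels are given as CPM (UMIs per 1000000 UMIs of the gate), for single genes or sums of genes, and they are not scaled by length because each UMI stands for 1 tagged 3′ end. CPM have exact Poisson 95% intervals and log2 ratios of ISO over control have exact conditional binomial 95% intervals, both written in parentheses. These intervals cover counting error only. A share of UMIs cannot tell less RNA of the chain from more RNA of other genes.

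The mitochondrial sums below rest on few genes, so 3′ sequences of genes near 0 and of well-counted genes are shown first. Each line gives 50 bases of the transcript that end 50 bases before its 3′ end, as in release M21 of the GENCODE annotation on GRCm38. Capitals mark a stretch found letter for letter in a pseudogene on chromosome 1, and lower case marks a stretch found in no other annotated transcript.
mt-Co2: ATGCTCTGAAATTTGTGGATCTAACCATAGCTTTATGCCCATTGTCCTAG
mt-Co3: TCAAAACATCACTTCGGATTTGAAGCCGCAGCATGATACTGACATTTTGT
mt-Nd4: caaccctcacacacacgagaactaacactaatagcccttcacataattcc
mt-Cytb: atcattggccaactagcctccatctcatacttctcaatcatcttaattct

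In the last 500 bases of mt-Co2, 100% of the 50-base windows recurred in another transcript, and the largest partner was the pseudogene Gm28661. The same share was 99.8% in mt-Co3, 99.3% in mt-Atp6, 98.0% in mt-Nd3, and 95.3% in mt-Co1. It was 17.7% in mt-Nd2, 12.6% in mt-Nd5, and 0% in mt-Nd1, mt-Nd4, mt-Nd6, and mt-Cytb. The 5 genes with nearly all windows shared lie in 1 stretch of the annotation, from the start of mt-Co1 (chrM:5328-6872, plus strand) to the end of mt-Nd3 (chrM:9459-9806, plus strand). Over all kept control barcodes, mt-Co2, which encodes the subunit that receives electrons from cytochrome c, was at 0.312 CPM, mt-Co3 at 0.144 CPM, and the complex V subunit gene mt-Atp6 at 0.696 CPM. mt-Co1, with nearly as many windows shared, was at 916 CPM in the same barcodes, and mt-Cytb (chrM:14145-15288, plus strand), which encodes cytochrome b of complex III, was at 5220 CPM. The mitochondrial sums are therefore sums over mt-Nd1, mt-Nd2, mt-Nd4, mt-Nd5, mt-Nd6, mt-Cytb, and mt-Co1 in all but a few UMIs, and they hold no usable value for complex V. Whether the shared sequence set the low counts was not tested.

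In macrophage-gated barcodes, the 80 nuclear subunits together were higher in the ISO library, while the genes of the mitochondrial genome were lower. The nuclear subunits summed to 10893 CPM (10814 to 10973) in control barcodes, against 16530 CPM (16451 to 16609) with ISO, a log2 ratio of 0.60 (0.59 to 0.61). The mitochondrial genes summed to 19670 CPM (19564 to 19776) in control barcodes, against 11029 CPM (10964 to 11093) with ISO, a log2 ratio of -0.83 (-0.85 to -0.82). The order of the genomes was therefore opposite in the libraries. For each mitochondrial UMI there were 0.554 nuclear subunit UMIs in the control (0.549 to 0.559) and 1.5 in the ISO library (1.49 to 1.51).

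Of the 80 nuclear subunits, 77 had at least 20 UMIs over both libraries in this gate. Of these, 73 had a log2 ratio above 0, against 40.7% of all genes with enough UMIs. At least 1.5-fold higher levels in the ISO library were found for 36 subunits, or 46.8% of those counted, against 17.5% of all 11950 genes with enough UMIs. At least 1.5-fold lower levels were found for 2 subunits, or 2.60%, against 31.8% of all genes. At 2-fold, 7 of the 77 were higher and 1 lower, against 8.36% and 17.8% of all genes, so the share higher was near the background. The median log2 ratio was 0.55 over the subunits and -0.19 over all genes. All 8 mitochondrial genes with enough UMIs were at least 1.5-fold lower.

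**Figure D1:**
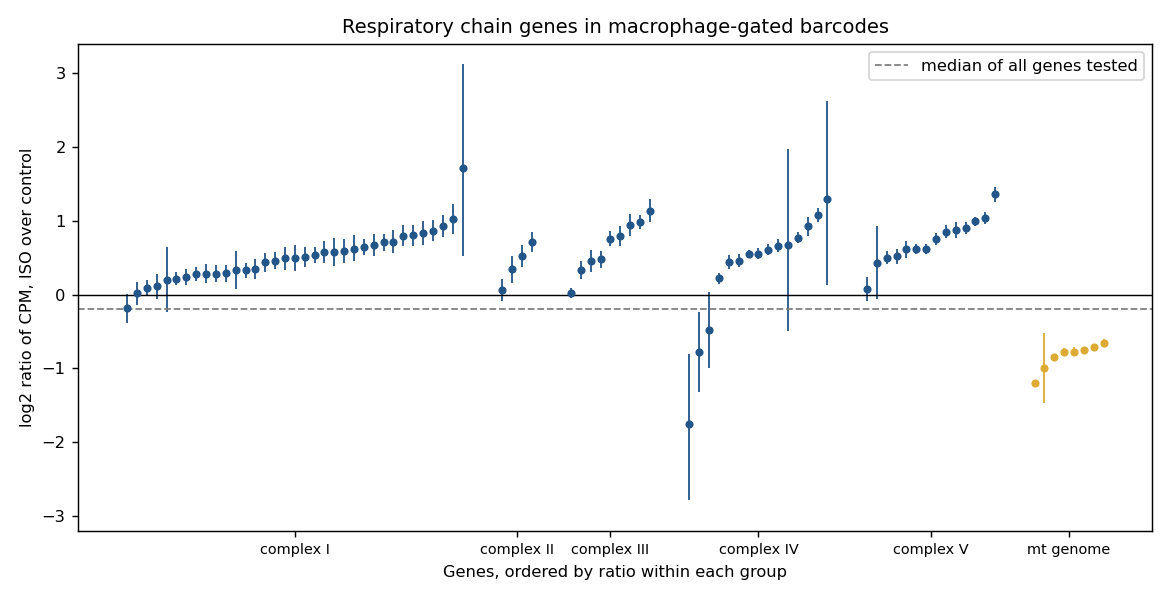
Log2 ratio of CPM, ISO over control, for each respiratory chain gene with at least 20 UMIs in macrophage-gated barcodes, grouped by complex for nuclear subunits (blue) and as 1 group for the mitochondrial genome (yellow). Bars are 95% counting intervals and the dashed line is the median of all genes tested, at -0.19. Of the nuclear subunits, 73 of 77 lie above 0, against 40.7% of all genes tested, and all 8 mitochondrial genes lie at or below -0.65.

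Complex I, which oxidizes NADH, was at 3451 CPM in its nuclear subunits in control and 4739 CPM in ISO barcodes of the macrophage gate, a log2 ratio of 0.46 (0.43 to 0.48). Of its 35 subunits with enough UMIs, 34 were above 0 and 13 at least 1.5-fold higher, against 40.7% and 17.5% of all genes. Ndufv1 (chr19:4007384-4012806, minus strand), the flavoprotein that binds NADH, was at 40.0 CPM in control barcodes and 81.1 CPM in the ISO library, a log2 ratio of 1.02 (0.82 to 1.22). The accessory subunits Ndufa12 and Ndufa8 followed, at 0.93 (0.78 to 1.08) and 0.87 (0.73 to 1.01). Ndufb6, another accessory subunit, had a larger ratio, 1.71 (0.52 to 3.13), from only 7 and 35 UMIs. At the other end, the accessory subunits Ndufa3 and Ndufb4 had ratios of 0.02 (-0.14 to 0.18) and -0.19 (-0.38 to 0.01), and both intervals include 0. The 7 assembly factors of complex I summed to 79.8 CPM and 131 CPM, a log2 ratio of 0.72 (0.57 to 0.87). Ndufaf4 had the largest ratio of these, 1.45 (1.11 to 1.81), from 12.7 to 34.7 CPM, and Ndufaf7 the smallest, -0.13 (-0.48 to 0.22).

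The mitochondrial genes of complex I went the other way. mt-Nd2 was at 3791 CPM in control and 1659 CPM in ISO barcodes, a log2 ratio of -1.19 (-1.22 to -1.16). mt-Nd4 had a ratio of -0.84 (-0.87 to -0.82), mt-Nd5 of -0.77 (-0.83 to -0.71), mt-Nd1 of -0.71 (-0.73 to -0.68), and mt-Nd6, the 1 mitochondrial protein gene on the minus strand, of -0.65 (-0.71 to -0.60). All of these were lower, and the interval of mt-Nd2 did not overlap those of mt-Nd1, mt-Nd4, mt-Nd5, and mt-Nd6. mt-Nd5 and mt-Nd6 overlap on opposite strands at chrM:13552-13565, and whether the counting used strand is not given in the sources used here. mt-Nd3, with 90 and 69 UMIs, had a ratio of -0.99 (-1.47 to -0.52) and is uncertain for the reason given above.

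Complex II, succinate dehydrogenase, has nuclear subunits only and summed to 319 CPM and 434 CPM, a log2 ratio of 0.44 (0.37 to 0.52). Its subunits were not alike. The iron-sulfur subunit Sdhb was at 95.6 CPM in control and 157 CPM in ISO barcodes, 0.72 (0.58 to 0.85) on the log2 scale. The catalytic flavoprotein Sdha was at 92.1 and 96.4 CPM, 0.07 (-0.08 to 0.21). The membrane anchors Sdhd and Sdhc had ratios of 0.53 (0.37 to 0.68) and 0.35 (0.17 to 0.53).

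Complex III, which reduces cytochrome c, had 9 of 9 nuclear subunits above 0, and 5 were at least 1.5-fold higher. Among all genes, 40.7% were above 0 and 17.5% were higher by as much. Its sum was 1321 CPM in control and 1940 CPM in ISO barcodes, a log2 ratio of 0.55 (0.52 to 0.59). The largest ratio was that of Cyc1 (chr15:76343523-76346260, plus strand), which encodes cytochrome c1, at 60.4 and 133 CPM or 1.14 (0.98 to 1.30). Uqcrq, a small subunit, was at 0.98 (0.88 to 1.08), and the Rieske iron-sulfur protein gene Uqcrfs1 at 0.95 (0.80 to 1.09). Uqcr11, a small subunit, was at 0.34 (0.22 to 0.46). The hinge protein gene Uqcrh, at 415 and 420 CPM, did not differ beyond its interval, with a ratio of 0.02 (-0.05 to 0.09). mt-Cytb, the 1 mitochondrial gene of this complex, was at 5915 and 3517 CPM, or -0.75 (-0.77 to -0.73). Cycs, which encodes the carrier cytochrome c between complexes III and IV, was at 25.8 and 44.8 CPM, or 0.79 (0.54 to 1.06).

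Complex IV, cytochrome c oxidase, summed to 2878 and 4354 CPM over its nuclear subunits, a log2 ratio of 0.60 (0.57 to 0.62). Cox7b, a small subunit gene on the X chromosome, was at 182 CPM in control and 387 CPM in ISO barcodes, or 1.08 (0.99 to 1.18). Cox5b and Cox8a followed at 0.93 (0.80 to 1.06) and 0.78 (0.70 to 0.85). Cox5a had a ratio of 1.30 (0.14 to 2.63) from 8 and 30 UMIs. The smallest ratios above 0 were those of Cox6a1, 0.44 (0.34 to 0.53), and Cox7c, 0.22 (0.14 to 0.30). Of the 2 nuclear subunits at least 1.5-fold lower in the whole chain, both were heart isoforms of this complex, Cox8b and Cox7a1, described below. The number lower was 1 with at least 100 UMIs, at 4000 to 8000 UMIs, with no lineage limit, and without cardiomyocyte UMIs, and 0 after thinning. mt-Co1, the catalytic subunit gene, was at 996 and 582 CPM, or -0.78 (-0.83 to -0.73), with the limit on its sequence given above.

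Complex V, the ATP synthase, had the largest summed ratio of all complexes, 0.79 (0.77 to 0.82), from 2924 to 5063 CPM. Its interval lay above those of the nuclear subunits of complexes I to IV. All 14 of its subunits with enough UMIs were above 0, and 10 were at least 1.5-fold higher, against 40.7% and 17.5% of all genes. Atp5g1 (chr11:96068852-96075670, minus strand), which encodes the ring subunit c, was at 138 CPM in control and 355 CPM in ISO barcodes, or 1.36 (1.26 to 1.47). The stator gene Atp5f1 was at 242 and 498 CPM, or 1.04 (0.96 to 1.12), and the catalytic β subunit gene Atp5b at 368 and 733 CPM, or 0.99 (0.93 to 1.06). The small membrane subunit genes Atp5j2 and Atp5k were at 0.50 (0.41 to 0.59) and 0.08 (-0.08 to 0.24). With these differences, the share of complex V in the UMIs of all nuclear subunits was 26.8% (26.5 to 27.2, exact Clopper-Pearson) in control barcodes, against 30.6% (30.4 to 30.9) in the ISO library, and that of complex I was 31.7% (31.3 to 32) and 28.7% (28.5 to 28.9).

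A few subunits were near 0 in both libraries. Over all kept barcodes, Ndufs5 was at 0.576 and 0.685 CPM, Cox5a at 1.61 and 2.67 CPM, Ndufb6 at 1.92 and 3.32 CPM, and Atp5g2 at 0.720 and 1.28 CPM. These 4 were among 10 subunits under 10 CPM in both libraries. These 4 shared 50-base windows with other transcripts, in 43.5%, 41.0%, 46.1%, and 23.1% of the last 500 bases. The largest partner of Ndufs5, the pseudogene BC002163, was at 17.9 and 16.4 CPM, above the gene itself. So was that of Atp5g2, the pseudogene Gm10175, at 22.2 and 10.9 CPM. The largest partners of Cox5a and Ndufb6 lie on the same chromosomes as these genes. They are Gm26631, at 2.62 and 1.03 CPM, and Smim27, which was not among the counted genes. The other 6, Atp5l, Cox4i2, Cox6b2, Cox7a1, Cox8b, and Ndufa4l2, shared none. Some better-counted subunits shared as much or more, such as Cox7c at 40.8% and 301 CPM in the control library. Uqcrc2 shared 100% at 90.3 CPM, Atp5o 68.3% at 155 CPM, and Ndufs3 53.9% at 12.4 CPM. The largest partners of Uqcrc2 and Atp5o, Pdzd9 and the antisense gene Gm15976, lie on the same chromosomes as these genes. That of Ndufs3 is the pseudogene Gm12251 on chromosome 11. Both strands were searched, so overlapping genes at 1 locus also count as shared. Over 50% of windows were shared in 0 of the 10 low subunits and in 3 of the other 70. These shares do not separate overlapping genes from copies, and whether copied sequence set the low counts was not tested.

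The macrophage gate was also divided by marker. Barcodes with the resident markers Timd4, Lyve1, or Folr2 numbered 361 in the control library and 146 after ISO. Their nuclear subunits were at 11752 CPM (11627 to 11879) and 17355 CPM (17130 to 17582), a log2 ratio of 0.56 (0.54 to 0.59), and their mitochondrial genes at 20157 and 12417 CPM, a ratio of -0.70 (-0.72 to -0.67). Barcodes with neither resident nor Arg1 and Spp1 markers, 501 and 476, had ratios of 0.68 (0.66 to 0.69) and -0.85 (-0.87 to -0.84). Barcodes high in Arg1, which encodes arginase 1, and Spp1, which encodes osteopontin, were found only in the ISO library, where 294 of them had 16449 CPM of nuclear subunits (16319 to 16580) and 11025 CPM of mitochondrial genes. The 3 ISO groups thus lay between 16380 and 17355 CPM in nuclear subunits, all above both control groups.

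Across the 8 gates, the nuclear sum was higher and the mitochondrial sum lower in the ISO library in each of them, although the mitochondrial direction turned under some alternative settings in the monocyte, neutrophil, and NK gates. In the control library, the nuclear sum ran from 6637 CPM (6366 to 6916) in neutrophil-gated to 14771 CPM (14519 to 15026) in NK-gated barcodes. From the lowest up, the B gate followed at 10455 CPM, the macrophage gate at 10893 CPM, the T gate at 12078 CPM, the monocyte gate at 13741 CPM, the ILC2 gate at 14048 CPM, and the DC gate at 14266 CPM. The intervals of the monocyte, ILC2, and DC gates overlapped, and those of the other neighbours did not. In the ISO library, the neutrophil gate was again lowest, at 8990 CPM (8708 to 9278), and the NK gate highest, at 20939 CPM (19999 to 21912), the latter from 16 barcodes. Mitochondrial levels in the control were highest in B-gated and macrophage-gated barcodes, at 20054 CPM (19954 to 20155) and 19670 CPM, and lowest in monocyte-gated barcodes, at 9430 CPM (9190 to 9674).

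**Figure D2:**
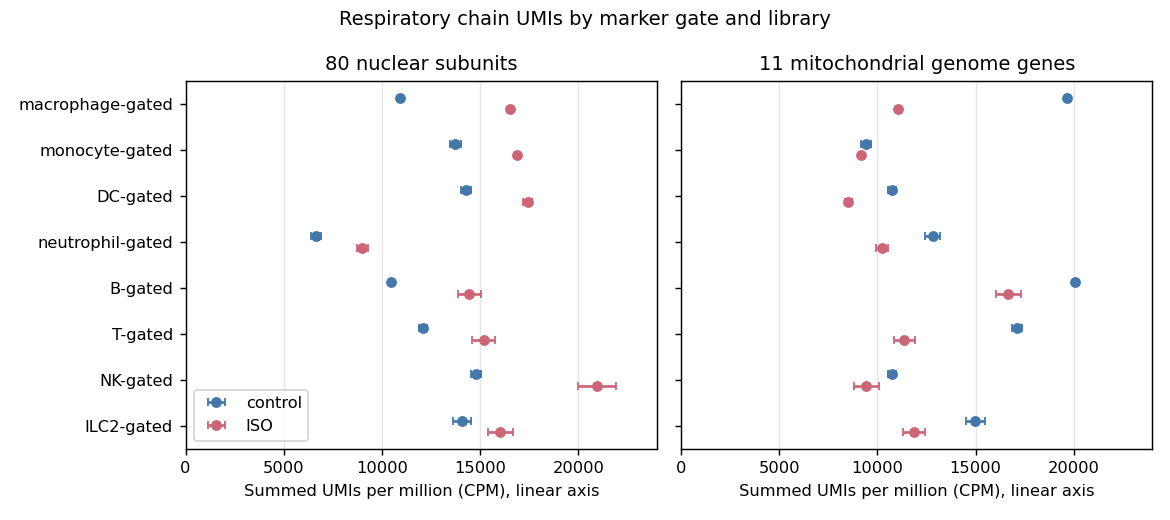
Summed CPM of the 80 nuclear subunits (left) and the 11 mitochondrial genome genes (right) in each marker gate, for the control (blue) and ISO (red) library, with exact Poisson 95% intervals on a linear axis from 0. The nuclear sum is higher in ISO in all 8 gates, and the mitochondrial sum of the macrophage gate is at 19670 CPM in control and 11029 CPM in ISO.

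Monocyte-gated barcodes had a smaller difference. Their nuclear subunits were at 13741 CPM (13451 to 14035) in control barcodes, against 16856 CPM (16787 to 16926) with ISO, a log2 ratio of 0.29 (0.26 to 0.33). Their mitochondrial genes were at 9430 and 9166 CPM, a ratio of -0.04 (-0.08 to -0.003). With the median of all genes set to 0, with the 10% limit on mitochondrial UMIs, with free RNA subtracted, and without barcodes that held cardiomyocyte UMIs, this ratio was 0.19, 0.05, 0.08, and 0.07. It was -0.25 (-0.32 to -0.18) in barcodes with 4000 to 8000 UMIs, 23 control and 838 ISO, and 0.30 (0.20 to 0.39) in those with at least 12000, 9 and 191. Of 75 subunits with enough UMIs, 15 were at least 1.5-fold higher, or 20%, against 20.3% of all genes, and 0 were lower by as much, against 34.3%. The median was 0.32 against -0.23 for all genes. With the median of all genes set to 0, 34 subunits were higher by as much, against 26.7% of all genes, so the share higher was near the background on the CPM scale and not on the centred scale. mt-Cytb was higher, at 2599 and 2910 CPM or 0.16 (0.09 to 0.24), whereas mt-Nd2 was lower, at -0.25 (-0.35 to -0.16). Uqcrh was lower in this gate, at 741 and 506 CPM or -0.55 (-0.69 to -0.41), and Atp5g1 was higher, at 172 and 331 CPM or 0.94 (0.67 to 1.23).

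DC-gated barcodes had nuclear sums of 14266 and 17411 CPM, 0.29 (0.26 to 0.32), and mitochondrial sums of 10744 and 8517 CPM, -0.34 (-0.38 to -0.29). Of 72 subunits, 12 were at least 1.5-fold higher, or 16.7%, against 17.5% of all genes, and 0 were lower by as much, against 21.6%. The ratio moved with depth. In barcodes with at least 12000 UMIs, 29 control and 5 ISO, the nuclear ratio was 0.06 (-0.02 to 0.15), and in those with 4000 to 8000 UMIs, 8 and 78, it was 0.68 (0.56 to 0.81).

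Neutrophil-gated barcodes had nuclear sums of 6637 and 8990 CPM, 0.44 (0.36 to 0.51), and mitochondrial sums of 12813 and 10211 CPM, -0.33 (-0.39 to -0.27). Of 63 subunits, 31 were at least 1.5-fold higher, or 49.2%, against 30.6% of all genes, and 2 lower, or 3.17%, against 22.9%. Single barcodes differed less than these sums. The median barcode had 0.629% of its UMIs in nuclear subunits in control, against 0.571% in ISO, and the mean of single barcodes gave a log2 ratio of 0.17 for the nuclear and -0.02 for the mitochondrial sum. The 90th percentile of the nuclear share was 0.920% in control and 1.42% in ISO. S100a8 was lower in the ISO side of this gate, at 33719 and 19897 CPM. With 4000 to 8000 UMIs, where the control had 11 barcodes, the nuclear ratio was 0.06 and the mitochondrial ratio -0.99. With no lineage limit they were 0.75 and -0.77. After thinning to 1000 UMIs, the nuclear ratio was 0.16 and the mitochondrial ratio 0.01, and the latter was also above 0 with a 10% limit on mitochondrial UMIs, 0.06, and with no limit, 0.13.

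B-gated barcodes had nuclear sums of 10455 and 14449 CPM, 0.47 (0.41 to 0.53), and mitochondrial sums of 20054 and 16663 CPM, -0.27 (-0.32 to -0.21). Of 72 subunits, 30 were at least 1.5-fold higher, or 41.7%, against 26.9% of all genes, and 1 lower, or 1.39%, against 23.2%. T-gated barcodes had nuclear sums of 12078 and 15166 CPM, 0.33 (0.27 to 0.39), and mitochondrial sums of 17105 and 11372 CPM, -0.59 (-0.66 to -0.52). Of 69 subunits, 21 were at least 1.5-fold higher, or 30.4%, against 27.2% of all genes, and 1 lower, or 1.45%, against 21.3%. With the median of all genes set to 0, 9 subunits were higher by as much, against 22.8%, so the order of subunits and background turned. The ISO side of these gates held 40 and 29 barcodes. In NK-gated barcodes the nuclear and mitochondrial ratios were 0.50 (0.43 to 0.57) and -0.19 (-0.29 to -0.09). Of 69 subunits, 34 were at least 1.5-fold higher, or 49.3%, against 21.3% of all genes, and 2 lower, or 2.90%, against 32.3%. In ILC2-gated barcodes the ratios were 0.19 (0.12 to 0.26) and -0.34 (-0.42 to -0.26). Of 67 subunits, 9 were at least 1.5-fold higher, or 13.4%, against 20.6% of all genes, and 2 lower, or 2.99%, against 17.8%. The ILC2 share higher was thus below the background.

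Cd68 was higher in the ISO library in all 4 of these gates, Il1b in the B, T, and NK gates, and C1qa in none of them. Cd68 was at 18.2 CPM in control and 92.0 CPM in ISO for the B gate, at 48 and 119 CPM for the T gate, at 5.65 and 112 CPM for the NK gate, and at 11.8 and 63.3 CPM for the ILC2 gate. Il1b, which encodes an inflammatory cytokine of myeloid cells, was at 216 and 1306 CPM for the B gate, at 401 and 5612 CPM for the T gate, at 54.2 and 2484 CPM for the NK gate, and at 440 and 443 CPM for the ILC2 gate. C1qa, a complement gene of macrophages that the gates limited, was at 30.0 and 24.5 CPM for the B gate, at 37.0 and 0 CPM for the T gate, at 31.6 and 22.5 CPM for the NK gate, and at 11.8 and 6.33 CPM for the ILC2 gate. Their part in the respiratory chain values of these gates was not tested.

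**Figure D3:**
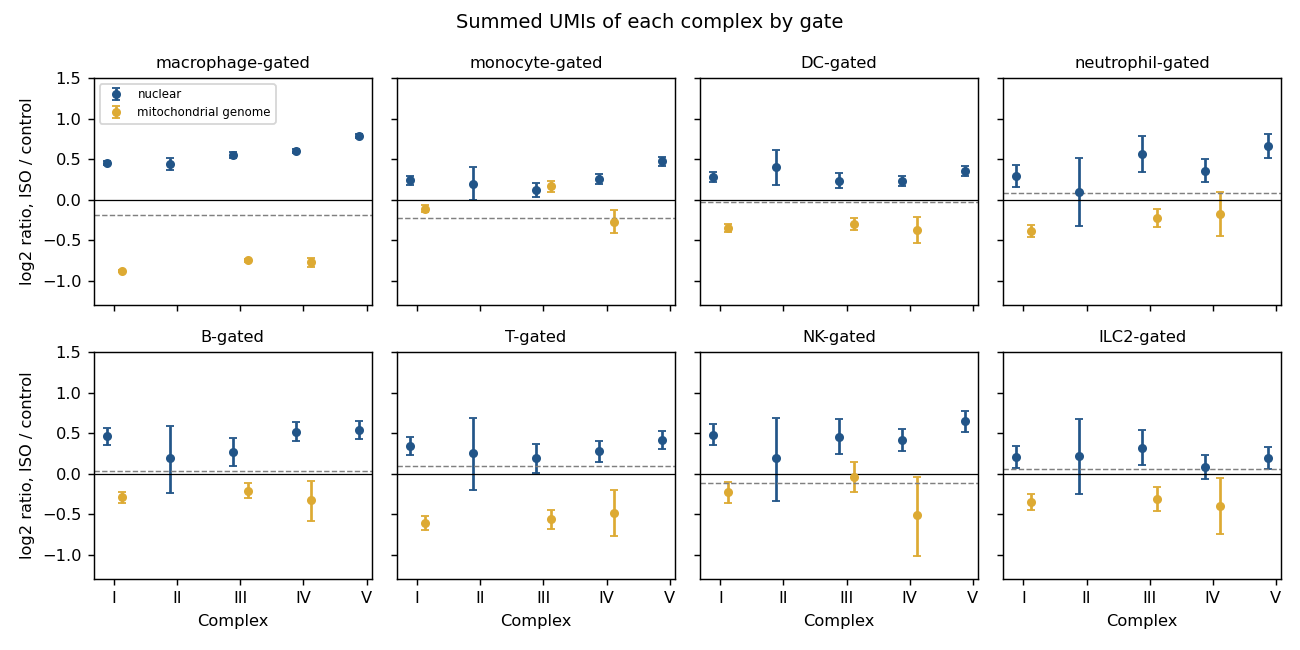
Log2 ratio, ISO over control, of the summed UMIs of each complex in each marker gate, for nuclear subunits (blue) and mitochondrial genome genes (yellow, complexes I, III, and IV), with 95% counting intervals. The dashed line is the median of all genes tested in the gate. Nuclear subunits of complex V have the largest ratio in the macrophage gate, 0.79, and the mitochondrial points lie below 0 except complex III in the monocyte gate, at 0.16.

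By complex, the nuclear sum of complex V had the largest ratio in the macrophage, monocyte, neutrophil, B, T, and NK gates, at 0.79, 0.47, 0.66, 0.54, 0.42, and 0.65. Only in the macrophage and monocyte gates was its interval apart from all the others. In the DC gate, complex II was largest at 0.40 (0.19 to 0.61), beside complex V at 0.36 (0.30 to 0.41), and in the ILC2 gate complex III was largest at 0.32 (0.10 to 0.54). The intervals of these overlapped.

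The macrophage difference was also measured at matched depth. ISO macrophage-gated barcodes were deeper, with a median of 9188 against 6440 UMIs. Within 4000 to 8000 UMIs, the 455 control and 312 ISO barcodes had a nuclear ratio of 0.63 (0.61 to 0.66) and a mitochondrial ratio of -0.85 (-0.87 to -0.82). At 12000 UMIs or more the ratios were 0.50 (0.48 to 0.52) and -0.61 (-0.63 to -0.59). After each barcode was thinned to 1000 UMIs, the median macrophage-gated barcode held 10 nuclear and 18 mitochondrial UMIs in the control, against 16 and 10 in the ISO library. Nuclear UMIs outnumbered mitochondrial ones in 17.4% of control and 74.5% of ISO barcodes, and in 15.4% and 84.0% of them before thinning. The range from the 10th to the 90th percentile was 5 to 16 nuclear UMIs in control and 10 to 23 in ISO barcodes, so single barcodes of the libraries overlapped.

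Other RNAs moved with these sums in the macrophage gate. The mitochondrial rRNAs, which are not members, were at 22947 and 10120 CPM, -1.18 (-1.19 to -1.17). The median barcode had 4.20% of its UMIs in mitochondrial genes, rRNAs included, in the control and 2.08% in the ISO library. Over all kept barcodes this median was 4.11% and 2.02%, so the libraries differed in it beyond this gate. Malat1 was at 19606 and 11825 CPM in the macrophage gate. Gm26924, a predicted gene, held 56570 CPM of the control and 11381 CPM of the ISO total. Without it in the totals, the nuclear ratio was 0.53 and the mitochondrial ratio -0.90. The 12 cardiomyocyte genes, all detected in both libraries of this gate, summed to 226 CPM in control barcodes and 90 CPM in the ISO library, and over all gates they ranged from 7.85 to 341 CPM in control barcodes and from 5.94 to 107 CPM in the ISO library. In the 391 control and 581 ISO macrophage-gated barcodes with no UMI of these genes, the ratios were 0.64 and -0.73.

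The paralogs that replace each other by tissue were compared as shares of their set. Cox4i1 made up 99.8% of the Cox4i UMIs of macrophage-gated barcodes in both libraries. Its paralog Cox4i2, the lung and hypoxia isoform, held 9 of 4709 UMIs in the control, or 0.191% (0.0874 to 0.363), and 22 of 10534 in the ISO library, or 0.209% (0.131 to 0.316). In the control B gate, all 8 Cox4i2 UMIs and all 11 Ndufa4l2 UMIs came from 1 barcode, which also held 183 UMIs of 8 mural cell genes. Ndufa4l2 otherwise had at most 4 UMIs in any other gate and library.

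The heart isoforms were rare, and in the macrophage gate they were lower in the ISO library. Cox8b (chr7:140898945-140900446, minus strand) held 31 of 2236 Cox8 UMIs in control macrophage-gated barcodes, or 1.39% (0.944 to 1.96), and 14 of 5776 in the ISO library, or 0.242% (0.133 to 0.406). Its level was 4.63 CPM in control barcodes and 1.37 CPM in the ISO library, a log2 ratio of -1.76 (-2.78 to -0.80). Cox7a1 (chr7:30184144-30186078, plus strand) was at 9.55 and 5.57 CPM, -0.78 (-1.32 to -0.24). In barcodes with no cardiomyocyte UMI the ratios were -1.61 for Cox8b and -0.44 for Cox7a1, and with no lineage limit they were -1.32 and -0.23. The cardiomyocyte genes given above moved in the same direction, from 226 to 90 CPM. The testis isoform Cox6b2 held 3.05% (2.35 to 3.88) and 1.45% (1.13 to 1.84) of the Cox6b UMIs.

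Cox7a2l, classed here as a factor of supercomplexes of complexes III and IV, stood apart from most of the subunits. Whether its protein joins these complexes in C57BL6 mice was not tested. In macrophage-gated barcodes it was at 310 CPM in control and 128 CPM in ISO barcodes, a log2 ratio of -1.28 (-1.38 to -1.18). It was also lower in monocyte-gated barcodes, 481 and 151 CPM or -1.67 (-1.85 to -1.49), in DC-gated barcodes, 444 and 180 CPM or -1.31 (-1.56 to -1.06), and in T-gated barcodes, 598 and 356 CPM or -0.75 (-1.15 to -0.36). Only in the ILC2 gate was it higher, at 377 and 456 CPM or 0.28 (-0.19 to 0.73), with an interval that includes 0. Its share of the Cox7a set was 58.5% (56.9 to 60.1) in control and 27.4% (26.1 to 28.7) in ISO macrophage-gated barcodes, where Cox7a2, the ubiquitous subunit, was at 210 and 333 CPM.

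In the ring subunit set, Atp5g1 and Atp5g3, whose mature proteins are identical, held nearly all UMIs. The share of Atp5g1 was 51.9% (49.5 to 54.2) in control and 64.3% (63.1 to 65.6) in ISO macrophage-gated barcodes, and 51.0% (44.0 to 57.9) and 62.8% (61.7 to 64.0) in monocyte-gated barcodes. In B-gated barcodes it was 45.4% (43.3 to 47.5) and 43.8% (32.2 to 55.9), and these intervals overlapped. Atp5g2 had 4 and 12 UMIs in the macrophage gate, and windows of its sequence recur elsewhere.

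**Figure D4:**
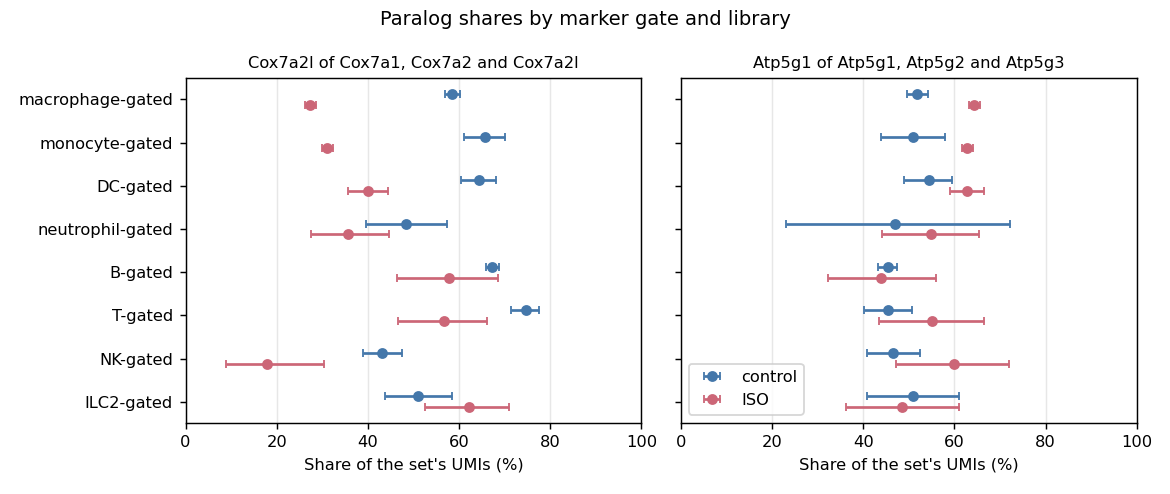
Share of Cox7a2l in the UMIs of Cox7a1, Cox7a2, and Cox7a2l (left) and of Atp5g1 in those of Atp5g1, Atp5g2, and Atp5g3 (right), by marker gate, for control (blue) and ISO (red), with exact Clopper-Pearson 95% intervals. In the macrophage gate, Cox7a2l is at 58.5% and 27.4% and Atp5g1 at 51.9% and 64.3%.

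Promoters of nuclear subunits were searched because NRF1, GABPA, and YY1 are known to bind many of them. The RefSeq table on GRCm38.p6 held windows from 250 bases before to 50 after the start for 65 of the 80 subunit genes, in 70 windows. On either strand, the NRF1 letters GCGCATGCG were in 11.4% of these windows against 1.75% of all 32851, the ETS letters of GABPA, CCGGAAG, in 22.9% against 8.86%, and the YY1 letters AAGATGGCG in 10.0% against 1.40%. The CCAAT letters were in 41.4% against 37.4%, and TATAAA in 10.0% against 13.6%. The 100 bases before the start are shown for a gene with the NRF1 letters in complex I and for the carrier, and for genes with the ETS letters in complexes II and V, with the letters found in capitals.
Ndufa11 (NRF1), chr17:56717662-56717761, plus strand: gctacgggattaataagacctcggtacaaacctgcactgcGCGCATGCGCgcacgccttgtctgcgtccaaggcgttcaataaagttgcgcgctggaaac
Cycs (NRF1), chr6:50566570-50566669, minus strand: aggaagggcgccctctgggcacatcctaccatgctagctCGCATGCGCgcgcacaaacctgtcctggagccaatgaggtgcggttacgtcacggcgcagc
Sdhd (ETS), chr9:50603850-50603949, minus strand: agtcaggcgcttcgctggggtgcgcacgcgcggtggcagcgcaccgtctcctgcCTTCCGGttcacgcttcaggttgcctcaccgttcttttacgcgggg
Atp5h (ETS), chr11:115419920-115420019, minus strand: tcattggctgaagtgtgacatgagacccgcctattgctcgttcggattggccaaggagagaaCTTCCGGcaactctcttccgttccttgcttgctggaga

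In Ndufa11 the letters match on both strands, 1 base apart, which gives the run of 10 capitals. In macrophage-gated barcodes, the 7 subunits with the NRF1 letters had a median log2 ratio of 0.44, from 0.08 to 0.87, and the 56 without had 0.55. The 16 with the ETS letters had a median of 0.53 and the 47 without 0.57. The 7 with the YY1 letters had a median of 0.57 and the 56 without 0.53.

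Other genes of the pathway were described from lists in the macrophage gate, where the background is the one given above. Of 13 TCA cycle genes, which feed the chain, 6 were at least 1.5-fold higher and 0 lower, with a median log2 ratio of 0.52, and Mdh2, malate dehydrogenase, was at 94.1 and 286 CPM or 1.6 (1.48 to 1.73). Of 7 carrier and uncoupling protein genes, 5 were higher and 0 lower, with a median of 0.87, and the ADP and ATP carrier gene Slc25a5 was at 191 and 424 CPM or 1.15 (1.06 to 1.25). Of 75 mitochondrial ribosome genes with enough UMIs, 50 were higher and 2 lower, with a median of 0.68. Of 24 assembly factors outside the Nduf family, 9 were higher and 1 lower, with a median of 0.38. Of 14 genes of glycolysis, 12 were higher and 0 lower, with a median of 1.77, and Pkm, pyruvate kinase, was at 231 and 1547 CPM or 2.74 (2.67 to 2.82).

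Of 9 genes that act on the mitochondrial genome with enough UMIs, 3 were higher and 0 lower, with a median of 0.38. Tfam, its main transcription and packaging factor, was at 20.7 and 18.9 CPM, -0.14 (-0.46 to 0.19), and the translation factor gene Tsfm at 15.7 and 37.5 CPM, 1.26 (0.95 to 1.59). Of 8 regulators of respiratory genes, 2 were higher and 1 lower, with a median of 0.05. The transcription factor genes Nrf1, Gabpa, and Yy1 had ratios of -0.12 (-0.35 to 0.12), 0.15 (-0.12 to 0.41), and -0.13 (-0.26 to -0.01), whereas Esrra was at 0.65 (0.32 to 1.0) and Hif1a at 2.02 (1.86 to 2.18). Of 4 antioxidant genes, Sod2, Prdx3, and Prdx5 were higher, at 1.48 (1.38 to 1.58), 1.09 (0.87 to 1.32), and 1.71 (1.63 to 1.80), and the mainly cytosolic Sod1 was lower, at -0.95 (-1.12 to -0.78).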

How the data were processed

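The deposited files hold raw UMI counts per gene and barcode, made by the authors with bcl2fastq 2.19.1.403, UMI-tools 1.0.0, STAR 2.7.3a on mm10, and featureCounts 1.6.4 from Subread. The annotation release and the use of strand in counting are not given in the sources used here. Reads that match more than 1 place can be lost in such counting, so genes with near-identical copies are uncertain. Of the 13 mitochondrial protein genes in the annotation, the counts hold 11, and mt-Atp8 and mt-Nd4l are absent from them.

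From these counts, barcodes with over 500 and under 6000 genes and under 25% mitochondrial UMIs were kept, as in the study's methods. Kept UMIs numbered 41651434 in the control and 55443553 in the ISO library. Gates required at least 3 UMIs of a lineage's markers, a minimum of marker UMIs per 10000, and low levels of the markers of other lineages. Their thresholds were set after the marker distributions had been seen. No doublet caller was run, so doublets within a lineage remain. The members and lists were chosen with earlier results of these data known.

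With 1 library per group, no test between conditions and no p-value was possible. Counts of UMIs were given exact Poisson intervals, shares exact Clopper-Pearson intervals, and ratios exact conditional binomial intervals, each at 95%. A gene was counted as 1.5-fold higher or lower if it had at least 20 UMIs over both libraries, and these counts and the medians over genes used 0.5 added to each UMI count. For each complex, the 3 largest and 2 smallest ratios among nuclear subunits with at least 200 UMIs were named, together with the mitochondrial genes and the members of paralog sets. Ndufb6, Cox5a, Ndufs5, the Ndufaf genes, Cox4i1, and the genes of the other lists were named after their values had been seen. Uniqueness was measured as the share of 50-base windows in the last 500 bases of a transcript that recur in transcripts of other genes. Matches were letter for letter, on either strand. The scripts ran in Python 3.11.15 with numpy 2.4.6, scipy 1.17.1, and pandas 2.3.3, and the ratio estimates were checked on simulated data. Alternatives covered the denominator, the filters, the gates, thinning, free RNA, the thresholds, and the choice of genes.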

Additional observations from a re-analysis of the deposited data

Results flagged for a closer look

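mt-Cytb, the cytochrome b gene of complex III, had opposite directions in neighbouring cell classes. Its log2 ratio of ISO over control was -0.75 (-0.77 to -0.73) in the macrophage gate, from 5915 to 3517 CPM, and 0.16 (0.09 to 0.24) in the monocyte gate, from 2599 to 2910 CPM. With 1 library per group, the difference between the gates was not tested. The control monocyte gate held 74 barcodes. For this gate, mt-Cytb alone was not measured under the alternative settings. The mitochondrial sum of the gate changed sign with depth. Its ratio was 0.56 under 4000 UMIs, -0.25 at 4000 to 8000, -0.08 at 8000 to 12000, and 0.30 at 12000 or more. In the monocyte gate, Ly6c2, a gene of classical monocytes, was at 1028 CPM in control and 436 CPM in ISO barcodes. Il1b was at 5001 and 12283 CPM in the same gate. Whether the make-up of the gate had a part in the mt-Cytb ratio was not tested.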

How the results depend on the processing

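Over 85 results and 17 alternatives, of which 4 were chosen after seeing the data, 753 of 1063 values stayed within the counting interval or, for counts of genes, within 1.5 times, while 301 moved further and 9 reversed. The cause was not tested for any of them. No paired analysis was possible because each group had 1 library. In the macrophage gate, where the nuclear and mitochondrial ratios were 0.60 and -0.83, they were 0.57 and -0.87 without mitochondrial genes in the denominator, 0.79 and -0.65 with the median of all genes set to 0, 0.59 and -0.71 with a 10% mitochondrial limit, 0.56 and -0.66 with no limit on other lineages, 0.67 and -0.97 as the mean of barcodes, 0.67 and -0.98 after thinning, 0.53 and -0.90 without Gm26924, 0.63 and -0.85 at 4000 to 8000 UMIs, and 0.64 and -0.73 without cardiomyocyte UMIs. The mitochondrial ratio was -0.86 with no mitochondrial limit and -0.87 without the member with the most UMIs. Of nuclear subunits, 36 were higher and 2 lower at 1.5-fold. At 2-fold these were 7 and 1 of 77, against 8.36% and 17.8% of all genes, so the share higher was near the background. At 1.5-fold, 1 was lower with no limit on other lineages and with at least 100 UMIs. The number was also 1 at 4000 to 8000 UMIs and without cardiomyocyte UMIs, and 0 after thinning. The share of all genes lower in these settings ran from 24.9% to 34.7%. Centring on the median gave 54 higher, against 23.9% of all genes.

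In the neutrophil gate, the nuclear and mitochondrial ratios were 0.36 and -0.41 with the median set to 0, 0.75 and -0.77 with no lineage limit, 0.17 and -0.0239 as the mean of barcodes, 0.16 and 0.0122 after thinning, and 0.0570 and -0.99 at 4000 to 8000 UMIs. The nuclear ratio was 0.23 with a stricter lineage limit and 0.54 without cardiomyocyte UMIs, and the mitochondrial ratio was 0.0574 with a 10% limit, 0.13 with no limit, and -0.26 with free RNA subtracted. In the T gate they were 0.23 and -0.68 with the median set to 0, 0.41 and -0.33 after thinning, and 0.39 and -0.46 without cardiomyocyte UMIs. The T nuclear ratio was 0.26 without Gm26924, and the mitochondrial ratio was -0.41 with a 10% limit, -0.35 with a stricter lineage limit, -0.51 as the mean of barcodes, and -0.35 at 4000 to 8000 UMIs. The monocyte mitochondrial ratio reversed with the median set to 0, 0.19, a 10% limit, 0.0465, free RNA subtracted, 0.0843, and no cardiomyocyte UMIs, 0.0708, and that of the NK gate with a stricter lineage limit, 0.13, and at 4000 to 8000 UMIs, 0.17. Over the alternatives, the subunits higher numbered 4 to 34 in the monocyte gate, where 15 are reported, 0 to 32 in the DC gate (12), 4 to 51 in the neutrophil gate (31), 6 to 41 in the B gate (30), 2 to 29 in the T gate (21), 11 to 41 in the NK gate (34), and 1 to 19 in the ILC2 gate (9). The share of all genes also changed with the setting. At 2-fold, the subunits higher were 4 of 75 in the monocyte gate, against 12.3% of all genes. They were 0 of 72 in the DC gate (7.06%), 19 of 63 in the neutrophil gate (20.4%), and 6 of 72 in the B gate (15%). In the T gate they were 2 of 69 (12.5%), in the NK gate 11 of 69 (9.71%), and in the ILC2 gate 2 of 67 (8.05%). Of these, only the neutrophil and NK shares were above the background. The subunits lower numbered at most 6, 3, 7, 5, 3, 10, and 4 in the 7 gates, while the share of all genes lower was 8.22% or more in each setting. The ISO library had 16 to 40 barcodes in the NK, T, ILC2, and B gates.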
